A study of Mus musculus with 6 samples.

Results

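Aminoacyl-tRNA synthetases load each transfer RNA with its amino acid. The 36 genes described here encode them in mouse: 20 whose enzymes work in the cytosol, or in the cytosol and mitochondria alike, and 16 whose enzymes work in mitochondria. They were taken as a list of symbols and found by Ensembl identifier among the 53801 genes of the count files. Symbols ending in 2 are the mitochondrial genes, and newer annotation releases add a 1 to the cytosolic names.

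The cells were chemically induced cardiovascular progenitor cells (ciCPCs), obtained from mouse fibroblasts by chemical reprogramming towards the cardiac lineage and expanded from picked colonies. All 6 samples came from wild type mice of mixed strain (C57BL/6 and 129J/SvE). All were kept in basal medium with BMP4, Activin A, CHIR99021, which inhibits glycogen synthase kinase 3, and SU5402, which inhibits FGF receptors. The 2 groups were passage 3 and passage 20, with 3 RNA-seq libraries each, and the comparison asked how early and late cultures differ. The labels do not say that replicates were separate cultures, so p-values measure only how these samples spread, and that spread may be technical. No batch is named, and the effects of passage, culture and harvest cannot be told apart.

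As background, a synthetase activates its amino acid with ATP and joins it to the matching tRNA, so these enzymes set the supply of charged tRNA for translation. Animals carry separate nuclear genes for most cytosolic and mitochondrial forms. The exceptions here are Gars and Kars, each a single gene that serves both compartments, and Qars, which has no mitochondrial counterpart: mitochondrial glutaminyl-tRNA is made by Ears2 and an amidotransferase. In the cytosol 8 of the listed genes encode members of the multi-synthetase complex, held together by the scaffold proteins Aimp1, Aimp2 and Eef1e1. The mitochondrial forms charge tRNAs used to make the respiratory chain subunits encoded in mitochondrial DNA. Uncharged cytosolic tRNA activates the kinase Gcn2 (gene Eif2ak4), which phosphorylates eIF2 and raises translation of the transcription factor ATF4. ATF4 is known to activate several cytosolic synthetase genes.

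Libraries held 13995799 to 17721788 counts in genes at passage 3 and 11387738 to 13285419 at passage 20. Levels are TMM-normalised CPM (counts scaled to a common library size), and a log2 fold change compares passage 20 with passage 3. Replicate 3 of passage 20 stood apart: its counts differed from those of replicates 1 and 2 with a chi-square per degree of freedom of 10.6 and 8.72, against 1.75 to 2.63 for the other pairs within a group. Of the 8 cardiac progenitor markers 4 were higher and 4 lower at passage 20, and their summed level was 763 to 786 CPM at passage 3 and 642 to 710.1 CPM at passage 20. Isl1 was at 58.6 to 69.6 CPM and then 7.06 to 8.06 CPM, and Nkx2-5, at 1.01 to 1.39 CPM and then 4.85 to 5.59 CPM, was low in both groups. The 6 fibroblast markers together held 9660 to 10100 CPM at passage 3 and 22000 to 26400 CPM at passage 20, with 4 higher and 2 lower. Most of that sum was Col1a1 and Col3a1, while Thy1 and Pdgfrb were lower. The 4 neural markers summed to 51.4 to 53.7 CPM and then 99.2 to 121 CPM, with 2 higher and 2 lower. Most of the neural sum was Tubb3, at a mean of 33.4 and then 91.6 CPM, while Pax6 and Map2 were lower. The 5 cardiomyocyte markers summed to 2.91 to 3.76 CPM and then 5.27 to 5.92 CPM. For the 3 endothelial markers the sum was 6.59 to 8.34 CPM and then 8.45 to 8.72 CPM. The 4 smooth muscle markers summed to 785 to 848 CPM and then 801 to 827 CPM, with 1 higher and 2 lower. Most of the smooth muscle sum was Acta2, at a mean of 796 and then 788 CPM, which did not pass. Myh11 fell 4.2-fold and Tagln 1.8-fold, while Cnn1 rose 1.29-fold. The 5 immune markers summed to 7.23 to 8.43 CPM and then 8.15 to 11 CPM, with Ptprc and Itgam at 0 counts, Cd68 not passing and Csf1r 1.52-fold higher. The summed progenitor, fibroblast, neural, cardiomyocyte and endothelial markers thus moved with the groups, as did single smooth muscle markers. Their part in the results below was not tested. In such bulk samples fewer cells of a type and less RNA per cell cannot be told apart.

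All 36 genes passed the filter on low counts, and each had at least 754 counts over the 6 libraries. Of these, 29 (80.6%) passed the test for a difference between passages, where 74.3% of all 15143 genes tested did (edgeR quasi-likelihood test, p-values adjusted by Benjamini and Hochberg's method over all genes, threshold 0.05). Among cytosolic or shared genes 17 of 20 (85.0%) were higher at passage 20, 1 was lower and 2 did not pass, where 37.0% of all genes were higher and 37.3% lower. Scaled by library sizes alone, 16 were higher and 3 lower, with Rars at a log2 fold change of -0.08. Among mitochondrial genes 5 of 16 (31.2%) were higher, 6 (37.5%) were lower and 5 did not pass. By library sizes alone these counts were 3 higher and 10 lower. The median log2 fold change was 0.89 for cytosolic or shared genes (1.85-fold), -0.04 for mitochondrial genes and -0.01 for all genes tested. With library sizes alone the 3 medians were 0.56, -0.37 and -0.34. The whole scale was thus shifted down, with the cytosolic or shared median still above that of all genes and the mitochondrial median close to it. Without replicate 3 of passage 20, 17 cytosolic or shared genes were higher and 2 lower, and 6 mitochondrial genes were higher and 7 lower.

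**Figure D1:**
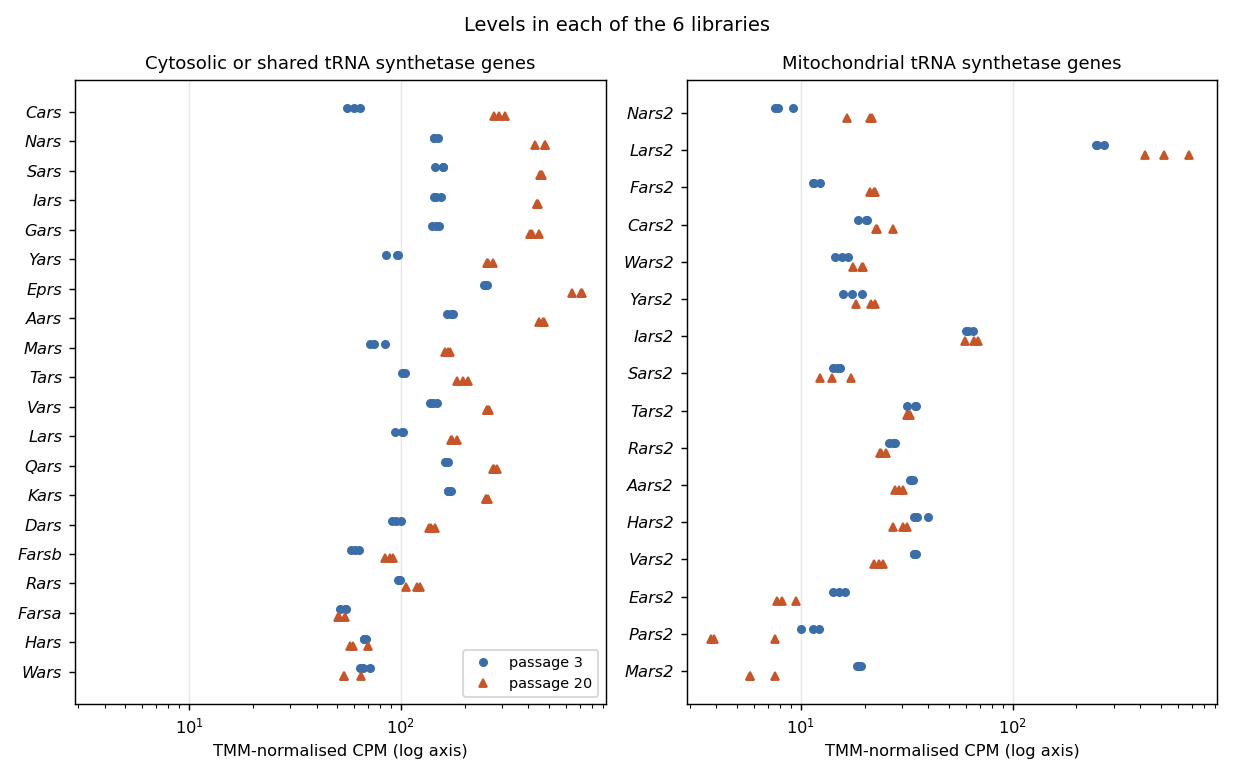
Level of each synthetase gene in each of the 6 libraries, in TMM-normalised CPM on a log axis, with passage 3 as blue circles and passage 20 as orange triangles; genes are ordered by their log2 fold change. In the left panel (cytosolic or shared) the triangles lie to the right of the circles without overlap in 17 of 20 genes, and in the right panel (mitochondrial) they lie on either side. Over all genes tested, 38.3% had passage 20 above passage 3 without overlap.

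The 8 members of the multi-synthetase complex were all higher at passage 20 with TMM scaling, with log2 fold changes of 0.25 to 1.57 and a median of 0.80; Rars alone had a negative value by library sizes alone. None of the 8 had overlapping groups, where 77.5% of all genes tested had none (38.3% with passage 20 above and 39.3% with passage 20 below). Iars, the isoleucine enzyme (ENSMUSG00000037851, chromosome 13, 49682100 to 49734267 on GRCm38), was at 144, 146 and 155 CPM in the passage 3 libraries and 445, 441 and 437 CPM in those of passage 20. Every passage 20 library lay far above every passage 3 library, 2.97-fold on average (log2 1.57 ± 0.0493 SE, edgeR adjusted p = 8.18e-10). Eprs, a single protein that charges both glutamate and proline tRNAs, was at 250, 246 and 255 CPM and then at 710.1, 712 and 645 CPM. It had the highest CPM of the cytosolic genes in every library, and it rose 2.75-fold (log2 1.46 ± 0.0535 SE, edgeR adjusted p = 1.83e-09). Mars, which charges methionine tRNAs, rose 2.16-fold from 77.0 ± 6.64 to 166 ± 4.40 CPM (SD, n = 3), and the leucine enzyme Lars rose 1.78-fold. Mars shares 68 exonic bases with Ddit3 on the opposite strand, and the strand setting of the counting is not stated.

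The other members of the complex moved less. Qars, which charges glutamine tRNAs, rose 1.69-fold (log2 0.76 ± 0.0465 SE). Kars, the lysine enzyme of both cytosol and mitochondria, was at 166, 172 and 168 CPM at passage 3 and at 252, 252 and 257 CPM at passage 20. Its groups were tight and separate, with a 1.50-fold rise (log2 0.59 ± 0.0456 SE, edgeR adjusted p = 5.62e-07). The aspartate enzyme Dars rose 1.47-fold. Rars, the arginine enzyme, rose least, 1.19-fold from 98.1 ± 1.52 to 116 ± 9.02 CPM (SD, n = 3; edgeR adjusted p = 0.00416). The 3 scaffold genes rose as well: Aimp1 1.61-fold, Aimp2 1.56-fold and Eef1e1 1.48-fold. All 3 of 3 were higher, with a largest edgeR adjusted p of 6.98e-05, where 37.0% of all genes tested were higher.

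Outside the complex, 9 of 12 cytosolic or shared genes were higher, 1 was lower and 2 did not pass, with a median log2 fold change of 1.19. Among all genes tested, 37.0% were higher and 37.3% lower. Cars, the cysteine enzyme (ENSMUSG00000010755, chromosome 7, 143557230 to 143600090), was at 55.7, 60.2 and 63.8 CPM at passage 3 and at 309, 291 and 275 CPM at passage 20. This 4.87-fold rise was the largest of the 36 genes (log2 2.28 ± 0.0665 SE, edgeR adjusted p = 4.97e-10). Per kilobase of exon, Cars was the lowest of the 20 at passage 3, at 9.10 ± 0.621 CPM per kilobase, and reached 44.3 ± 2.56 at passage 20 (SD, n = 3). Nars, the asparagine enzyme, was at 144, 143 and 149.7 CPM and then at 479, 480.5 and 431 CPM. Replicate 3 was the lowest of its passage 20 libraries, still well above passage 3, and the rise was 3.19-fold (log2 1.67 ± 0.0564 SE, edgeR adjusted p = 1.14e-09).

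The serine, glycine, tyrosine and alanine enzymes rose by similar factors. Sars, which also charges selenocysteine tRNA with serine, was at 144, 159 and 159 CPM and then 458, 452 and 461 CPM (2.97-fold, edgeR adjusted p = 1.09e-09). Gars, the glycine enzyme of both compartments, was at 139.7, 146 and 151 CPM and then 413, 409 and 450.1 CPM (2.91-fold, edgeR adjusted p = 1.73e-09). Both genes had separate groups with a spread that was small beside the difference. Per kilobase, Gars had the highest level of the 36 genes in both groups, at 46.7 ± 1.83 and 136 ± 7.28 CPM per kilobase (SD, n = 3). This ranking depends on annotated exon length, which was 3119 bases for Gars and 18102 for Eprs, the gene with the higher CPM. Yars, the tyrosine enzyme, was at 85.1, 96.8 and 95.7 CPM and then 255, 258 and 272 CPM (2.83-fold, edgeR adjusted p = 3.9e-09). Aars, the alanine enzyme, was at 164, 171.5 and 175.6 CPM and then 447.5, 472 and 469 CPM (2.72-fold, edgeR adjusted p = 1.28e-09). The threonine enzyme Tars rose 1.91-fold and the valine enzyme Vars, which binds the elongation factor 1 complex, 1.80-fold. The exons of Yars and of Aars overlap another gene (C77080 over 30 bases on the opposite strand, and Exosc6 on the same strand, which had 0 counts).

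Farsa, Hars and Wars did not share the rise. Cytosolic phenylalanyl-tRNA synthetase is built from a catalytic alpha subunit (Farsa) and a beta subunit (Farsb). Farsa was at 54.9, 51.7 and 54.6 CPM and then 50.3, 51.1 and 54.35 CPM, with overlapping groups (log2 -0.05 ± 0.0643 SE, edgeR adjusted p = 0.502). Farsb rose 1.46-fold, from 60.7 ± 2.62 to 88.5 ± 3.84 CPM (SD, n = 3; edgeR adjusted p = 1.28e-05), so the genes of the 2 subunits differed in their call; the difference between them was not tested. Hars, the histidine enzyme, was at 66.9, 68.7 and 67.0 CPM and then 57.4, 59.6 and 70.1 CPM. Replicate 3 was the highest library of all for Hars and the other passage 20 libraries were the lowest (log2 -0.11 ± 0.0774 SE, edgeR adjusted p = 0.209; without replicate 3 of passage 20, log2 -0.22 and edgeR adjusted p = 0.001). Wars, the tryptophan enzyme, was at 71.5, 64.1 and 66.0 CPM and then 54.05, 54.0 and 64.9 CPM. The groups overlapped, replicate 3 again being the highest of passage 20, and Wars fell 1.16-fold (log2 -0.22 ± 0.0825 SE, edgeR adjusted p = 0.0318). That call was lost without replicate 1 or 3 of passage 3 (edgeR adjusted p = 0.111 and 0.0592) and without replicate 1 or 2 of passage 20 (0.116 and 0.131).

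By enzyme class, which is set by the fold of the catalytic domain, most genes of both classes were higher. Of 9 class I genes 8 were higher and 1 lower, with a median log2 fold change of 0.845. Of 10 class II genes 8 were higher and 2 did not pass, with a median of 0.76. Over all genes tested, 37.0% were higher and 37.3% lower. Eprs, which joins a domain of each class, was left out of both.

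ATF4 pairs with C/EBP proteins on an element read as TGATGNAA, here searched on both strands of the 250 bases before and 50 bases after each start site (RefSeq, GRCm38.p6). A window was found for 13 of the 20 cytosolic or shared genes (Mars under its newer symbol) and 14 of the 16 mitochondrial genes. The letters were present in 5 of 13 cytosolic windows (38.5%), 0 of 14 mitochondrial windows and those of 1219 of all 27025 genes with a window (4.51%). The following lines show, for each synthetase gene with a match, the one nearest its start site, because these are genes that rose; the matched bases are in capitals with 10 bases on each side, on the strand of the gene. The match in the window of Asns, a well-known ATF4 target, is added for comparison.
Aars (chr8:111033841-111033868, plus strand): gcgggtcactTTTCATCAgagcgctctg
Gars (chr6:55037961-55037988, plus strand): ggctgcgctaTTTCATCAtgcaccgggc
Iars (chr13:49682127-49682154, plus strand): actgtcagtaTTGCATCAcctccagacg
Tars (chr15:11399656-11399683, minus strand): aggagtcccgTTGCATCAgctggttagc
Yars (chr4:129189896-129189923, plus strand): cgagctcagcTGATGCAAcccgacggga
Asns (chr6:7693215-7693242, minus strand): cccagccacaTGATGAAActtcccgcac

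In Yars and Asns the letters read TGATGNAA along the gene, and in the other lines they are its reverse complement. The first matched base lies at 10 for Aars, -30 for Gars, 8 for Iars, -15 for Tars and 4 for Yars, counted from the start site. All 5 genes with a match were higher at passage 20, where 37.0% of all genes tested were. So were 7 of the 8 cytosolic genes with a window but no match (Dars, Eprs, Farsb, Kars, Mars, Qars and Sars), and Farsa did not pass. The 13 windows do not include those of Cars, Hars, Lars, Nars, Rars, Vars and Wars. Among these, Hars did not pass and Wars was lower at passage 20. Windows without a match say only that the letters are not within those 300 bases. On the listed ATF4 targets, 8 of 21 windows held the letters (38.1%). Of those 8 genes 6 were higher at passage 20, and so were all 13 targets with a window but no match. Over all genes tested, 37.0% were higher.

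Mitochondrial genes moved in both directions, and all but Lars2 were lower in level per kilobase than their cytosolic counterparts. Per kilobase of exon, the mitochondrial genes other than Lars2 had mean levels of 1.18 to 9.76 CPM per kilobase at passage 3, and the cytosolic or shared genes 9.10 to 46.7. The ranges at passage 20 were 0.563 to 8.76 and 11.4 to 136 CPM per kilobase. The fewest counts for a mitochondrial gene in 1 library were 38, against 508 for a cytosolic gene. Standard errors of the log2 fold changes ran from 0.0703 (Iars2) to 0.23 (Pars2) for mitochondrial genes. For cytosolic or shared genes they ran from 0.0456 (Kars) to 0.0825 (Wars), so the ranges overlapped. Counts were not all that differed, as Lars2 had a standard error of 0.164 with 30391 counts over the 6 libraries.

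The largest fall was that of Mars2, which charges the mitochondrial methionine tRNA (ENSMUSG00000046994, chromosome 1, 55237177 to 55248470). It was at 18.4, 18.85 and 19.2 CPM at passage 3 and at 5.74, 5.77 and 7.56 CPM at passage 20. All passage 20 libraries lay well below, 2.93-fold on average (log2 -1.55 ± 0.121 SE, edgeR adjusted p = 5.92e-07). Pars2, the proline enzyme, was at 11.5, 9.98 and 12.2 CPM and then 3.76, 3.88 and 7.56 CPM. Replicate 3 of passage 20 lay nearer to the lowest passage 3 library than to its own replicates. Pars2 fell 2.17-fold (log2 -1.12 ± 0.23 SE, edgeR adjusted p = 0.0015; log2 -1.58 without that replicate). Ears2, the glutamate enzyme, was at 15.2, 14.2 and 16.1 CPM and then 8.12, 7.76 and 9.54 CPM, a fall of 1.78-fold (edgeR adjusted p = 5.84e-05). Its exons share 89 bases with Ubfd1 on the opposite strand, which had 9436 counts to the 1065 of Ears2.

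The valine, histidine and alanine enzymes fell by smaller factors. Vars2 was at 34.3, 35.0 and 34.2 CPM and then 22.2, 23.4 and 24.3 CPM, with separate groups and a 1.48-fold fall (edgeR adjusted p = 3.57e-05). Hars2 lies head to head with Hars on chromosome 18, the exons of the genes sharing 195 bases on opposite strands. Hars2 was at 39.7, 34.25 and 35.5 CPM and then 31.8, 30.2 and 27.3 CPM. Its groups were separate but near to each other, and it fell 1.23-fold (edgeR adjusted p = 0.00924, and 0.124 with offsets for GC content and length). Aars2 fell 1.15-fold, from 33.3 ± 0.697 to 29.0 ± 1.29 CPM (SD, n = 3; edgeR adjusted p = 0.0256). This call was lost in 7 of 18 alternatives, among them DESeq2 (adjusted p = 0.0773), offsets for GC content and length (edgeR adjusted p = 0.124), and fits without replicate 3 of passage 3 (0.0776) or replicate 2 of passage 20 (0.0572).

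Of the 5 mitochondrial genes that rose, Nars2, the asparagine enzyme, had the largest change. It was at 7.60, 7.82 and 9.20 CPM and then 21.2, 21.7 and 16.6 CPM, 2.39-fold higher (log2 1.26 ± 0.131 SE, edgeR adjusted p = 5.82e-06). Fars2, a single-chain phenylalanine enzyme, was at 11.5, 11.5 and 12.3 CPM and then 22.1, 21.2 and 22.45 CPM, 1.86-fold higher (edgeR adjusted p = 3.78e-06). Both had separate groups. The cysteine enzyme Cars2 and the tryptophan enzyme Wars2 rose 1.22-fold each (edgeR adjusted p = 0.0159 and 0.0193), and both had negative log2 fold changes by library sizes alone (-0.04 and -0.05). Without replicate 3 of passage 3 neither passed (edgeR adjusted p = 0.0847 and 0.102). Cars2 also lost its call without replicate 1 of passage 20 (0.071), and Wars2 without replicate 2 of passage 3 (0.0625) or replicate 2 of passage 20 (0.0648). The 5 genes that did not pass were Iars2, Rars2, Sars2, Tars2 and Yars2, with log2 fold changes of -0.15 to 0.23. Iars2 shares 22.9% of its exonic bases with Rab3gap2 on the opposite strand, which rose (log2 0.97), so its value is uncertain if counting ignored strand. Cars2 likewise shares 422 exonic bases with Naxd, which had 3147 counts to its 1807. Overlaps of Cars, Farsb, Fars2, Nars2 and Vars2 were with partners of at most 374 counts.

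**Figure D2:**
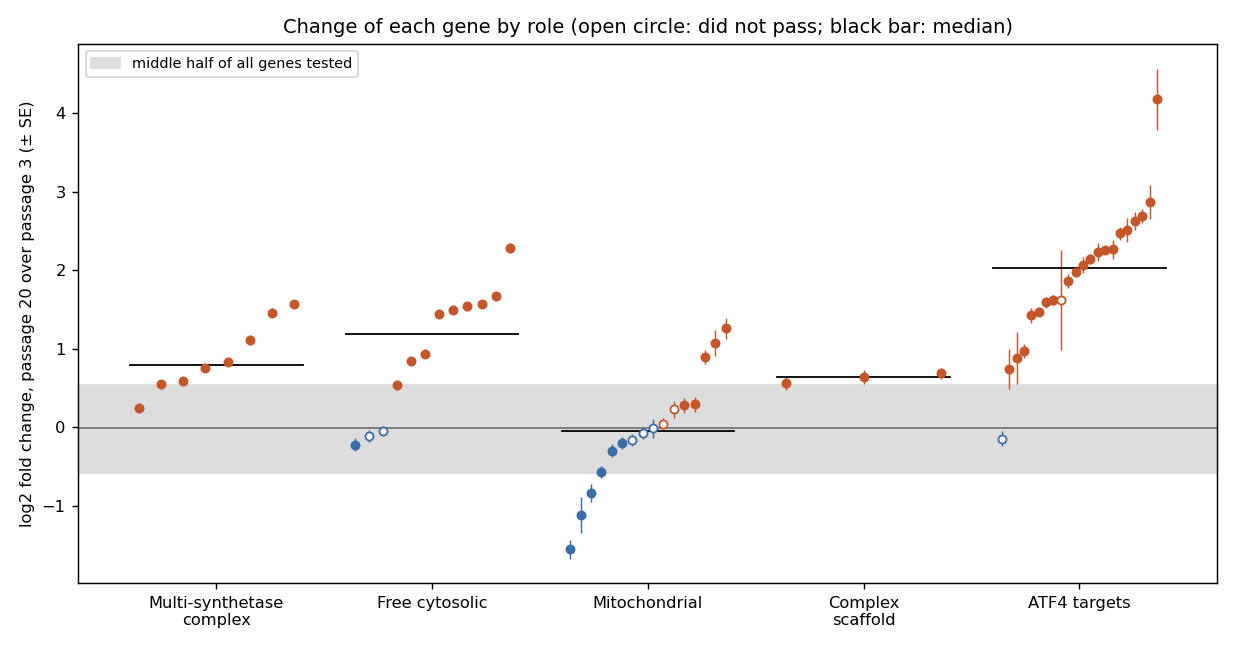
Log2 fold change of each gene, passage 20 over passage 3, with its standard error, for the cytosolic complex members, the free cytosolic genes, the mitochondrial genes, the complex scaffold and the ATF4 targets; orange is above 0 and blue below, open circles did not pass, black bars are medians, and the grey band runs from the lower to the upper quartile of all genes tested. The cytosolic medians of 0.80 and 1.19 lie above the band, which runs from -0.58 to 0.54, and the mitochondrial median of -0.04 lies within it. With library sizes alone all values shift down.

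Lars2, the mitochondrial leucine enzyme (ENSMUSG00000035202, chromosome 9, 123366927 to 123462666), stood apart from the other mitochondrial genes in level. It was at 250.5, 269 and 247 CPM at passage 3 and at 518, 677 and 422 CPM at passage 20. The groups did not overlap, but the passage 20 libraries were spread widely, with replicate 2 the highest and replicate 3 the lowest. It rose 2.11-fold (log2 1.08 ± 0.164 SE, edgeR adjusted p = 0.000895), and 0.88 on the log2 scale without replicate 2 of passage 20. Lars2 made up 24.7 ± 1.20% of the summed mitochondrial CPM per kilobase at passage 3 and 42.0 ± 5.76% at passage 20 (SD, n = 3).

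Towards its 3' end, bases 3278 to 3349, a Lars2 transcript matches a transcript of the noncoding gene Gm15564 at 98.6% identity over 72 bases. Gm15564 was at 2.91, 2.90 and 2.48 CPM and then 5.05, 7.36 and 3.86 CPM. A second noncoding gene, Gm26917, was at 97.8, 89.9 and 90.7 CPM and then 834, 897 and 217 CPM. Among the passage 20 libraries both were highest in replicate 2 and lowest in replicate 3, as was Lars2. The part of such reads in the level of Lars2 was not tested, and the level is uncertain for that reason.

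**Figure D3:**
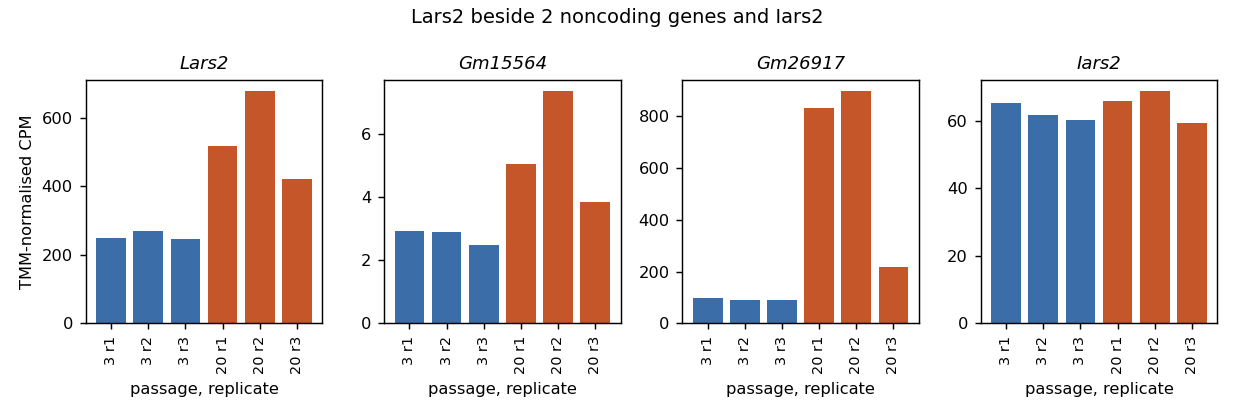
TMM-normalised CPM in each of the 6 libraries for Lars2, the noncoding genes Gm15564 and Gm26917, and, as another mitochondrial synthetase, Iars2; each panel has its own axis from 0, blue bars are passage 3 and orange bars passage 20. Lars2, Gm15564 and Gm26917 have their highest bar in replicate 2 and their lowest passage 20 bar in replicate 3, while Iars2 stays between 59.4 and 68.7 CPM.

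The balance between the compartments was followed within each library, where a shift of the whole scale cancels. The summed level of the cytosolic or shared genes was 476 ± 9.63 CPM per kilobase at passage 3 and 1010 ± 5.32 at passage 20 (SD, n = 3), a ratio of 2.11. The mitochondrial sum was 93.4 ± 1.36 and 115 ± 11.7, and without Lars2 it was 70.4 ± 1.71 and 66.0 ± 0.349. The cytosolic sum was 4.92, 5.10 and 5.27 times the mitochondrial sum in the passage 3 libraries and 8.84, 7.94 and 9.73 times in those of passage 20. Without Lars2, a choice made after seeing the data, the values were 6.45, 6.90 and 6.95 and then 15.1, 15.3 and 15.4. The groups did not overlap either way, which also held for 77.5% of all single genes tested. The log2 change of the ratio was 0.79 with Lars2 and 1.17 without it. Because the genes were chosen with earlier results known, no p-value is given for these sums.

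Most amino acids showed the same shift when the cytosolic gene was divided by its mitochondrial counterpart in the same library. Of 17 pairs (Eprs with both Ears2 and Pars2, and Fars2 with both Farsa and Farsb), 12 had a higher ratio in every passage 20 library than in any of passage 3, 3 had a lower one and 2 overlapped. Separate groups were common for single genes too, at 77.5% of all genes tested. With 3 libraries a group the smallest p an exact 2-sided permutation test can give is 0.1, so no single pair can pass by that test. The median change of the ratio was 2.41-fold. Mars over Mars2 was 12.9, 13.1 and 14.6 and then 92.8, 97.4 and 72.9, the largest change at 6.45-fold. Eprs over Pars2 changed 6.41-fold, Eprs over Ears2 4.93-fold and Cars over Cars2 3.99-fold. In these 4 pairs the cytosolic gene rose, and in the methionine, proline and glutamate pairs the mitochondrial gene fell as well.

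The ratio went the other way for phenylalanine and tryptophan. Farsa over Fars2 was 6.03, 5.72 and 5.63 and then 2.88, 3.05 and 3.07, so the mitochondrial gene gained 1.93-fold on the cytosolic one. Wars over Wars2 was 7.41, 7.10 and 7.88 and then 5.29, 4.75 and 5.77. Farsb over Fars2 fell 1.28-fold, although Farsb itself rose. The pairs with overlapping groups were Hars over Hars2 and Lars over Lars2. Lars over Lars2 was the only pair with a mitochondrial gene at the higher level per kilobase, with ratios of 0.524 to 0.897 over the 6 libraries, and it rests on the uncertain level of Lars2.

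**Figure D4:**
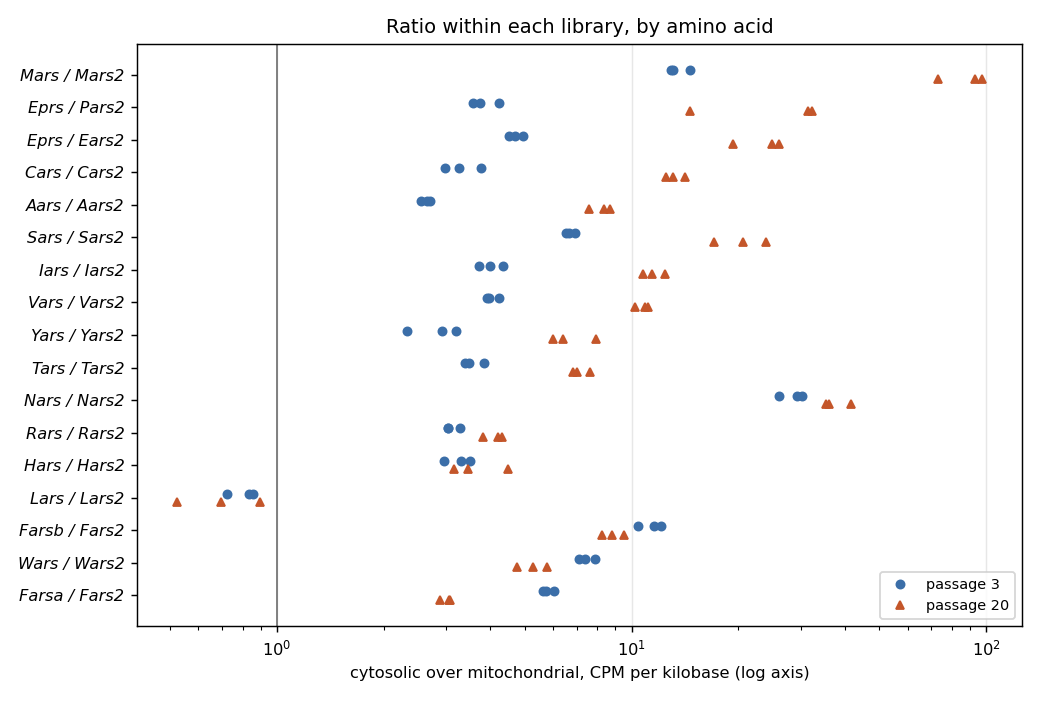
Ratio of the cytosolic to the mitochondrial gene for each amino acid within each library, from CPM per kilobase of exon on a log axis, with passage 3 as blue circles and passage 20 as orange triangles; the vertical line marks equal levels. Pairs are ordered by the change of the ratio, from Mars over Mars2 (6.45-fold higher at passage 20) at the top to Farsa over Fars2 (1.93-fold lower) at the bottom, and 12 pairs have all triangles to the right of all circles.

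The subunits of the mitochondrial amidotransferase were lower at passage 20 with TMM scaling: Gatb fell 1.39-fold, Gatc 1.38-fold and Qrsl1 2.10-fold (edgeR adjusted p = 0.00716, 0.000898 and 0.000195). These subunits complete the glutamine pathway that Ears2 begins, and Ears2 fell too. Mtfmt, which formylates the initiator methionyl-tRNA charged by Mars2, had a log2 fold change of -0.16 and did not pass (edgeR adjusted p = 0.0965). Of 9 mitochondrial translation factors 3 were higher and 5 lower, where 37.0% of all genes were higher and 37.3% lower. By library sizes alone 0 of these factors were higher and 5 lower. The elongation factor Tufm, which carries charged tRNA to the mitochondrial ribosome, rose 1.36-fold, and Mrrf and Gfm2, which act in ribosome recycling, rose 1.49-fold and 1.15-fold. Gfm1, Mtrf1l and Tsfm, a translocase, a release factor and the exchange factor of Tufm, fell 1.37-fold, 1.60-fold and 1.43-fold. Of the 22 tRNA genes in mitochondrial DNA, 21 were listed at 0 in all libraries and mt-Tp was at 37.7 to 48.8 CPM (log2 0.01), so the tRNAs charged by these enzymes were not measured.

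In the cytosol the elongation factor 1 complex, which takes charged tRNA to the ribosome, had 4 of 4 genes higher, from 1.90-fold for Eef1d to 2.12-fold for Eef1a1. Eef1a1 has many processed pseudogenes that can share reads. Of 11 tRNA maturation genes 4 were higher and 4 lower, shares close to those of all genes (37.0% and 37.3%), and by library sizes alone 1 was higher and 7 were lower. They include Hsd17b10 (1.43-fold higher) and the 3' processing enzyme Elac2 (1.61-fold lower). Of 5 tested genes for editing mischarged tRNA or for selenocysteine, Dtd1 was higher and Sepsecs lower, and Dtd2, Prorsd1 and Pstk did not pass; by library sizes alone 1 was higher and 3 were lower.

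The eIF2 kinases, of which Eif2ak4 senses uncharged tRNA, their regulators and ATF4 targets were also read. Of 7 eIF2 kinases and regulators 3 were higher and 2 lower, not far from the shares of all genes (37.0% and 37.3%). Eif2ak4, the sensor of uncharged tRNA, rose 1.64-fold, while the kinases Eif2ak1 and Eif2ak2 fell 2.17-fold and 1.49-fold. Atf4 mRNA was at 127, 123 and 127 CPM and then 503, 501 and 422 CPM (3.78-fold, edgeR adjusted p = 1.73e-09), with groups far apart. Of 22 listed ATF4 targets, a list without synthetase genes, 20 were higher, none was lower and 2 did not pass (Slc7a11 and Chac1); by library sizes alone 18 were higher and 1 lower. Their median log2 fold change was 2.02, above the 0.89 of the cytosolic synthetase genes. The targets with the smallest adjusted p were Psat1 of serine synthesis (4.77-fold), Aldh18a1 of proline synthesis (4.41-fold) and the transcription factor gene Ddit3 (5.53-fold). Over all the lists tested beside the synthetases, 38 genes were higher and 16 lower, where 37.0% of all genes were higher and 37.3% lower. The 20 ATF4 targets make up most of those 38. By library sizes alone 30 were higher and 24 lower.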

How the data were processed

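RNA was sequenced from 3 libraries at passage 3 and 3 at passage 20. Raw counts of reads in genes, as whole numbers, were deposited for each sample. The deposited log2 values, of a transformation that is not stated, served only in one alternative. Per the submitters' processing notes, the build was GRCm38 and the tools were SAMtools, HTSeq, DESeq2 and HISAT2 2.0.5. Neither the strand setting nor the annotation release is given in the sources used here. Symbols, positions and exon lengths came from GENCODE M21, which matched 53706 of 53801 identifiers (the 95 others held 0.00623% of counts). Where Ddit3 had more than 1 identifier, the one with the longer exons was used.

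All genes that passed filterByExpr (15143) were fitted together with TMM factors (1.12 to 1.13 at passage 3, 0.873 to 0.917 at passage 20) and edgeR 4.0.16 in R 4.3.3, robust quasi-likelihood test, with Benjamini-Hochberg adjustment and calls at 0.05. The fitted common coefficient of biological variation was 7.05%. Levels per kilobase divide CPM by the union of a gene's exons, so comparisons of level between genes depend on the annotated exons. Depth limits the mitochondrial genes most.

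The 36 genes, the other gene lists, the motif and the tests were chosen with earlier results of these data known. All 36 genes are named. Some items of the other lists and windows are not reported here. Values in every library are given for the 8 largest changes in each compartment, for cytosolic genes that fell or did not pass, and for Gars and Kars. Other lists are named by smallest adjusted p, up to 3 a direction, or by any member of a list with at most 6 tested; markers, Asns and the 2 noncoding genes were named for checks. Alternatives were RLE and upper-quartile factors, library sizes only, no filter, at least 1 CPM in 3 libraries, DESeq2 1.42.0, voom in limma 3.58.1, GC and length offsets (mgcv 1.9.3), a replicate block, a threshold of 0.01, limma on the deposited log2 values, each library left out, and, added after seeing the data, leaving out Lars2. Transcripts were compared with blastn 2.17.0.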

Additional observations from a re-analysis of the deposited data

How the results depend on the processing

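Over 18 alternatives fitted across all genes, 598 of 648 results for the synthetase genes kept their direction and their side of the threshold. Without a change of sign, 26 lost their call and 12 gained one. Another 12 changed sign, and some of these lost or gained a call as well. Of the 17 cytosolic genes that rose, 16 kept their call in all 18; Rars was lost by library sizes only. With library sizes only, 3 cytosolic genes were lower, 3 mitochondrial genes were higher and 10 lower, 3528 of all genes were higher, the cytosolic and mitochondrial medians were 0.56 and -0.37, and the log2 fold changes of Rars (-0.0812), Cars2 (-0.0394), Iars2 (-0.28), Wars2 (-0.0486) and Yars2 (-0.0996) turned negative. Upper-quartile factors gave 3 mitochondrial genes higher, medians of 0.81 and -0.118, and -0.0283 for Iars2. These settings shift all genes together. Without the low-count filter the medians were 0.86 and -0.0717. Offsets for GC content and length gave a cytosolic median of 1.00, 0.0705 for Farsa and 0.00155 for Sars2. A threshold of 0.01 left 0 cytosolic genes lower and 3 mitochondrial genes higher. Without Lars2 the mitochondrial median was -0.0721 and the log2 change of the summed ratio 1.17. Leaving out each library in turn gave 0 to 2 cytosolic genes lower, 3 to 6 mitochondrial genes higher, a cytosolic median of 0.87 to 0.90, a mitochondrial median of -0.124 to -0.0279 and a log2 change of the ratio of 0.72 to 0.86. With each library left out, Sars2 ran from -0.18 to 0.0948 and was above 0 in 3 cases, 0.00502 without replicate 2 of passage 3, 0.0948 without replicate 1 of passage 20 and 0.0182 without replicate 2 of passage 20. Beyond that shift and the smaller sample, the cause of each change was not tested.

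Replicate numbers did not pair the samples: deviations from the group means correlated at 0.0143, -0.0273 and 0.0454 between equal numbers. A replicate block gave 17 cytosolic genes higher and 1 lower, 6 mitochondrial genes higher and 5 lower, and 5521 genes higher and 5582 lower in all. The replicate block with GC and length offsets gave 0 cytosolic genes lower, a median of 1.00 and 0.0708 for Farsa.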
